A study of Homo sapiens with 6 samples.

Results

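The clustered protocadherins are cell-surface adhesion proteins of the cadherin superfamily whose genes lie side by side in 3 arrays, alpha, beta and gamma, on human chromosome 5. They were taken as every row of the expression table whose symbol began with PCDHA, PCDHB or PCDHG and whose position was on chromosome 5, which gave 59 of 50867 rows. The alpha cluster held 16 of them, namely 13 alpha genes, the C-type genes PCDHAC1 and PCDHAC2 and the pseudogene PCDHA14. The beta cluster held 19, of which 16 were beta genes and 3 were pseudogenes. The gamma cluster held 24, made up of 12 genes of the A type, 7 of the B type, the C-type genes PCDHGC3, PCDHGC4 and PCDHGC5 and 2 pseudogenes. In the positions given with the table, on the genome build hg38, the alpha rows ran from 140786136 to 141012347, the beta rows from 141051135 to 141249365 and the gamma rows from 141330571 to 141512981.

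Each alpha and gamma gene has its own promoter and a large variable exon that is spliced to constant exons shared by its whole cluster, whereas each beta gene is essentially a single coding exon. In neurons a few of these promoters are chosen in each cell, by loops that CTCF and cohesin form between a promoter and distant enhancers and by DNA methylation of the promoters that stay silent, and the resulting mixture of surface proteins lets a neuron tell itself from its neighbors. Outside the nervous system the clusters are best known for stretches of promoter methylation in tumors. The proteins bind the same isoform on a neighboring cell, are cut by ADAM10 and gamma-secretase, and act on focal adhesion kinases, the WAVE complex and Wnt signaling.

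The cells were the established human bladder cancer lines UM-UC-3, grown in DMEM, and 5637, grown in RPMI medium. A lentivirus had brought in either a negative control construct (sh-NC) or one of 2 hairpins against the long noncoding RNA LNMAT1, called sh-LNMAT1#1 and sh-LNMAT1#2, and stable lines had been selected with puromycin, so the controls were infected and selected too. There were 6 libraries, 1 for each construct and line, so the knockdown within a line was compared without replicates. Values were FPKM (fragments per kilobase of gene length, scaled to library depth), and the steps between low values gave depths of 19375000 to 24707000 fragments per library. The target, listed as LINC01296 (chr14:19284653-19337730), was lower in both UM-UC-3 knockdown libraries, at 6.20 and 6.70 FPKM, than in their control at 14.2. In 5637 the knockdown libraries had 4.70 and 2.14 FPKM and the library labelled 5637 sh-NC had 11.7. Unless said otherwise, values below are listed for sh-NC, hairpin #1 and hairpin #2 of UM-UC-3, then for the library labelled 5637 sh-NC, then for hairpins #1 and #2 of 5637.

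The library labelled 5637 sh-NC stood apart from the other 5637 libraries. Its correlation across 17140 genes on the log2 scale was 0.933 to 0.979 with the UM-UC-3 libraries but 0.643 and 0.646 with the 5637 knockdown libraries. Over the 59 members the same correlations were 0.918 to 0.950 against 0.528 and 0.550. The summed level of 21 epithelial and urothelial marker genes was 26.8 to 33.2 FPKM in the UM-UC-3 libraries, 30.9 in the library labelled 5637 sh-NC and 843 to 1120 in the 5637 knockdown libraries, with UPK1B at 0 in all 6 and UPK3A at 0 in 5. The label was kept throughout. Where a result rests on this library and a value without it could be had, that value stands beside it.

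Promoter stretches of 12 members are shown first, from RefSeq on GRCh38.p14, mostly of members that differed between the lines. Of the 59 members, 47 had a RefSeq promoter of 250 bases before to 50 bases after the start, and PCDHB6, PCDHB11 and PCDHA13 were not among them. The capitals mark the letters CGCT, the core of the sequence element that most clustered protocadherin promoters share and that overlaps their CTCF site. Every CGCT is marked, and a match to these letters alone does not show that the element is present. Each beta stretch has ggtgg directly before the CGCT, and the PCDHAC2 stretch does not. In the 70 bases from position -100 to -31, counted from the start of the transcript, CGCT on the strand of the gene was found in 43 of 47 members (91.5%), against 20.6% of 27305 promoters of all genes with the same window. It was found in 12 of 13 alpha, 12 of 14 beta and 19 of 20 gamma promoters. On the other strand of this window CGCT was in 9 of the 47 (19.1%), against 20.8% of all promoters. Anywhere in the 300 bases and on either strand it was in 46 of 47 and in 69.4% of all promoters. The median GC content of the 300 bases was 39.7% for the members and 58.3% for all promoters.

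The first 5 stretches belong to genes with more fragments in UM-UC-3 and in the library labelled 5637 sh-NC than in the 5637 knockdown libraries. All stretches lie on the plus strand. PCDHB5 and PCDHB8 hold no CGCT in the window from -100 to -31, so their stretches were shifted to position -40 to 29 to show it, at -11 in PCDHB5 and at 3 in PCDHB8.
PCDHAC2 (chr5:140966376-140966445): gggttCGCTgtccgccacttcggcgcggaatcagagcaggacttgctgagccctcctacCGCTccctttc
PCDHB2 (chr5:141094515-141094584): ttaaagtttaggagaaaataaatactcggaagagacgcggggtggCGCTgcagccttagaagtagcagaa
PCDHB3 (chr5:141100373-141100442): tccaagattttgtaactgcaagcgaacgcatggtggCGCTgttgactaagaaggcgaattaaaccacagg
PCDHB4 (chr5:141121718-141121787): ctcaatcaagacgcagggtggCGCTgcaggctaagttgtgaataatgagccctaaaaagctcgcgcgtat
PCDHB5 (chr5:141135166-141135235): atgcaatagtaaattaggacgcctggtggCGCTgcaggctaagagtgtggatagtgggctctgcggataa

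The next 5 belong to genes with more fragments in the 5637 knockdown libraries.
PCDHB8 (chr5:141177750-141177819): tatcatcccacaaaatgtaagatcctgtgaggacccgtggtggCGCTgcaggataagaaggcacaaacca
PCDHB9 (chr5:141187061-141187130): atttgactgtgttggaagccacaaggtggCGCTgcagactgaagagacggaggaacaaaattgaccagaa
PCDHB10 (chr5:141192253-141192322): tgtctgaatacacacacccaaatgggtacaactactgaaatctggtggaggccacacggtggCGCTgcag
PCDHB15 (chr5:141245295-141245364): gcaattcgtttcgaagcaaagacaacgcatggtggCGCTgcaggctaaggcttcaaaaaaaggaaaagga
PCDHGB6 (chr5:141407921-141407990): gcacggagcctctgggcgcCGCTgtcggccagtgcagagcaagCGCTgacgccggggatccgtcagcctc

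The last pair belongs to members with fragments in all 6 libraries, PCDHGB7 and PCDHGC3.
PCDHGB7 (chr5:141417577-141417646): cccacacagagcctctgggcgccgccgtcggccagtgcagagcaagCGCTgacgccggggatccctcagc
PCDHGC3 (chr5:141475866-141475935): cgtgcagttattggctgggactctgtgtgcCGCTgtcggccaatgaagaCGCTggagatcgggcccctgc

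Most clustered protocadherins were close to silent in these cells. PCDHA10 had 0 fragments in all 6 libraries, which allows up to 3 fragments in each, and 9 members had at most 3 fragments in every library. Only 4 members reached 1 FPKM in any library, namely PCDHGC3, PCDHB6, PCDHGB7 and PCDHB5. At least 20 fragments in some library were found for 29 members, and 12 members had over 3 fragments in all 6. Per length of merged exons PCDHGC3 had a depth-scaled mean of 10.5 fragments per kilobase over the 6 libraries. It was followed by PCDHB6 at 2.28, PCDHGB7 at 1.09, PCDHB5 at 0.850 and PCDHB2 at 0.667. The FPKM values understated genes with many annotated transcripts, by a median of 1.47 times among the members and 2.55 times for PCDHGC3, so single genes were compared with each other per length of merged exons, while the sums over clusters and lists below add FPKM as deposited. How reads in the constant exons that alpha and gamma genes share were assigned is not given in the sources used here, so the order of levels across genes is approximate.

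**Figure D1:**
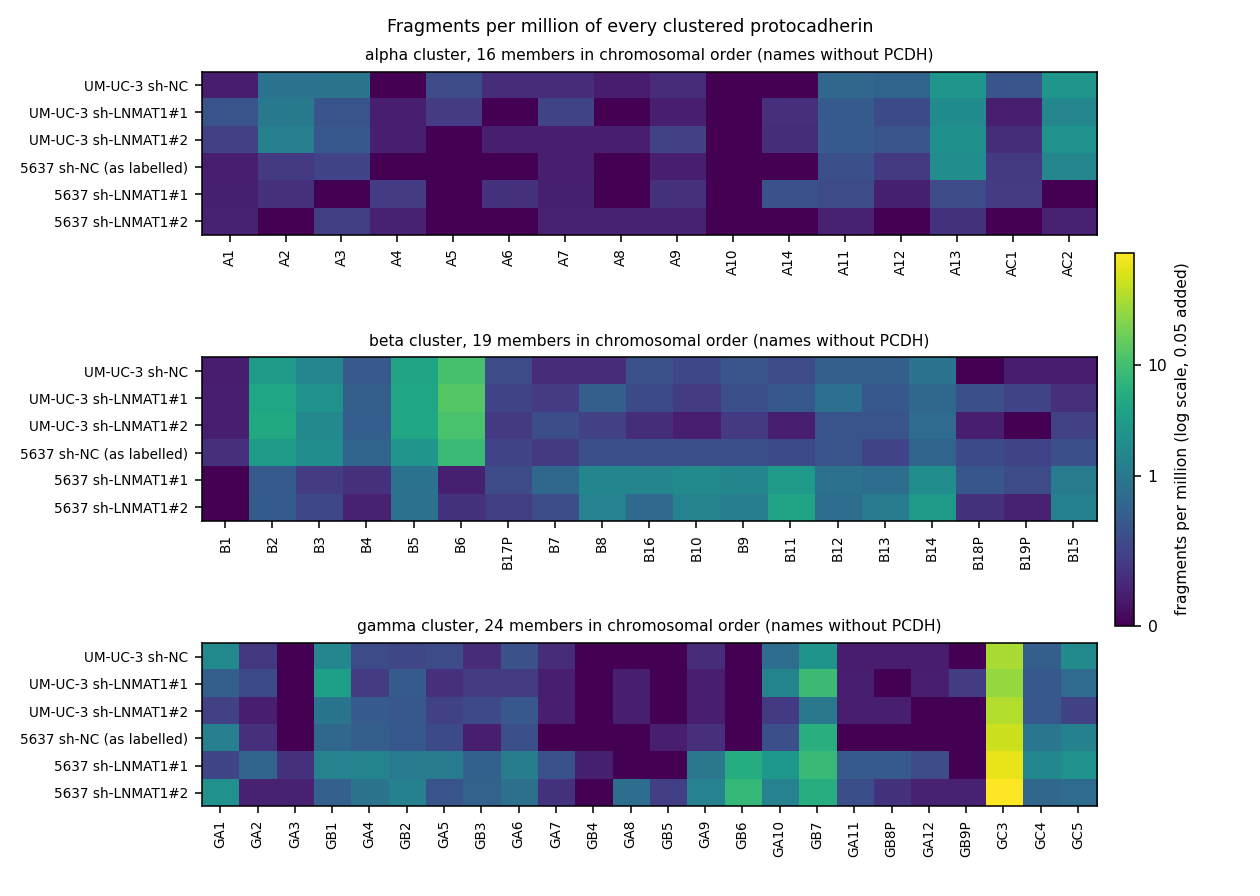
Fragments scaled to library depth (color, log scale with 0.05 added) of the 59 members in chromosomal order (columns) in the 6 libraries (rows), with 1 panel for each cluster. The 5637 knockdown libraries stand apart from the other 4 in the beta cluster, where they are lower from PCDHB2 to PCDHB6 and higher from PCDHB8 to PCDHB11, while PCDHGC3 is bright in all 6.

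In the beta cluster the direction of the difference changed between PCDHB6 and PCDHB7. This boundary was drawn after the values were seen, so the contrast of the blocks is a description. The 6 beta genes from PCDHB1 to PCDHB6 gave 498, 562 and 529 fragments in UM-UC-3, 388 in the library labelled 5637 sh-NC, and 32 and 31 in the 5637 knockdown libraries. The 10 beta genes from PCDHB7 to PCDHB15 gave 74, 75 and 50 fragments in UM-UC-3, 61 in the library labelled 5637 sh-NC, and 303 and 296 in the 5637 knockdown libraries. The first 6 genes held 86.4% to 91.4% of the fragments of the 16 beta genes in the UM-UC-3 libraries and the library labelled 5637 sh-NC, but 9.55% and 9.48% in the 5637 knockdown libraries. Pseudogenes were left out of these sums.

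**Figure D2:**
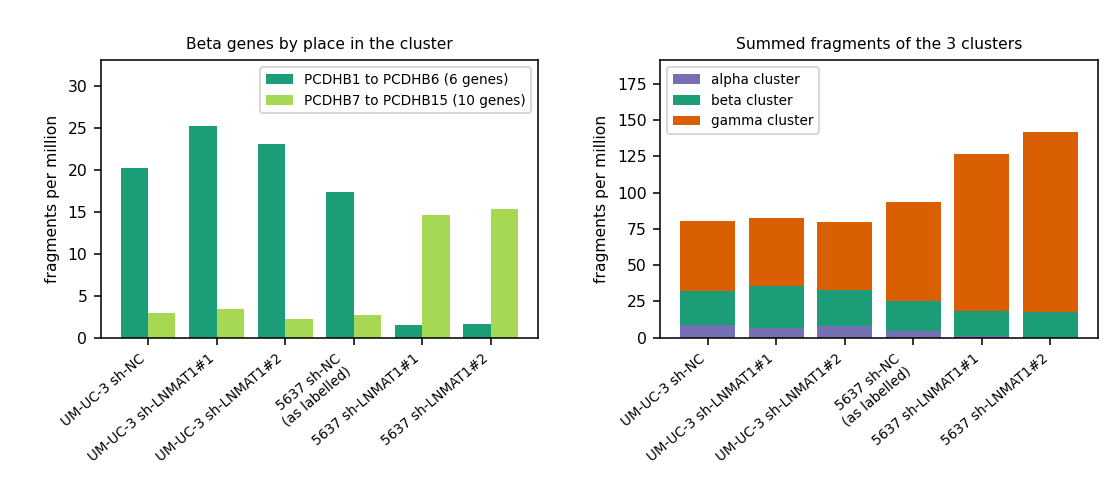
Fragments scaled to library depth in each library (bars), on the left for the 6 beta genes from PCDHB1 to PCDHB6 and the 10 from PCDHB7 to PCDHB15, on the right stacked for the 3 clusters. The left panel falls from 17.3 to 25.2 in the first 4 libraries to 1.54 and 1.60 for the first block, while the second block stands at 14.6 and 15.3 in the 5637 knockdown libraries.

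The lines were compared within the 4 knockdown libraries, which leaves out both controls. The question was how the members differed between the lines under the same hairpins. The 2 hairpin libraries of a line stood as its replicates, which left 2 residual degrees of freedom in the tests. The spread within a line therefore includes any difference between the hairpins. The values of the 2 knockdown libraries of a line did not overlap those of the other line for 36 of the 58 members with a fragment, of which 23 were higher in 5637 and 13 lower. Over all 35184 genes with a fragment, 30.1% were higher and 25.5% lower by the same rule. In the gamma cluster 14 of 24 were higher and 0 lower, some of them on few fragments, such as PCDHGA3 (0 and 0 against 2 and 1) and PCDHGA12 (1 and 0 against 5 and 1). In the beta cluster 8 of 19 were higher and 6 lower, and in the alpha cluster 1 of 16 was higher (PCDHA4, at most 3 fragments) and 7 lower. Every beta gene from PCDHB1 to PCDHB6 was among the lower ones, PCDHB1 with only 1 fragment in each UM-UC-3 library and 0 in the 5637 knockdown libraries. Of the genes from PCDHB7 to PCDHB15, 8 of 10 were higher, and PCDHB7 and PCDHB12 overlapped. With UM-UC-3 sh-NC included, 23 members were higher (26.7% of 36179 genes) and 12 lower (21.1%).

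By limma on log2(FPKM + 0.1), 9 members passed the filter of a mean of 0.3 FPKM, 4 were higher in 5637 (background 19.7% of 17294 genes) and 4 lower (17.2%) at an adjusted p under 0.05. Of the 9, all but PCDHGC3 and PCDHGB7 passed only through the line in which they were high. Their calls rest on the values that let them in, so this count does not describe the clusters as a whole. With the filter lowered to 0.1 FPKM, an alternative added after the values were seen, 7 of 20 members were higher (17.6%) and 5 lower (14.5%). Most of the members called there also passed only through the line in which they were high. Without a filter 6 of 58 were higher (9.48%) and 7 lower (7.09%). When all 6 libraries were grouped by the labelled line, 0 of 6 members passed, 3 had an unadjusted p under 0.05, and over all 17140 genes 1 was higher and 1 lower. The difference between the lines in the members thus rested on leaving out the library labelled 5637 sh-NC.

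PCDHB6 gave the largest difference between the lines among the members tested. It had 266, 302 and 256 fragments in UM-UC-3, 201 in the library labelled 5637 sh-NC, and 1 and 2 in the 5637 knockdown libraries. As FPKM these were 1.83, 2.31 and 1.90, then 1.53, then 0.00818 and 0.0176. The first 4 libraries did not overlap with the last 2. In the knockdown libraries 5637 was lower by 4.28 on the log2 scale (log2 change -4.28, SE 0.33, adjusted p = 0.000953). PCDHB6 passed the filter only through the UM-UC-3 knockdown libraries, so its adjusted p rests on the values that let it in. The fragments of the knockdown libraries gave 165 times more in UM-UC-3, with an exact 95% interval of 56.3 to 804 that covers counting error only.

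PCDHB5, PCDHB2 and PCDHB3, its neighbors toward the alpha cluster, went the same way. PCDHB5 had 102, 97 and 106 fragments in UM-UC-3, 58 in the library labelled 5637 sh-NC, and 18 and 16 in the 5637 knockdown libraries (log2 change -1.95, SE 0.31, adjusted p = 0.00822). The library labelled 5637 sh-NC lay between the groups for this gene. PCDHB2 had 79, 98 and 116 fragments in UM-UC-3, 69 in the library labelled 5637 sh-NC, and 8 in each 5637 knockdown library (log2 change -2.24, SE 0.35, adjusted p = 0.00785). PCDHB3 had 41, 54 and 40 fragments, then 46, then 3 and 4 (log2 change -2.20, SE 0.38, adjusted p = 0.0102). PCDHB5, PCDHB2 and PCDHB3 passed the filter only through the UM-UC-3 knockdown libraries, so their adjusted p-values rest on the values that let them in. PCDHB4, with 9, 10 and 10 fragments, then 12, then 2 and 1, was under the filter and was not tested. With either 5637 knockdown library left out PCDHB6 remained past the threshold, while the adjusted p was 0.0998 and 0.101 for PCDHB5, 0.0596 and 0.0647 for PCDHB2 and 0.0713 and 0.0857 for PCDHB3.

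Most beta genes nearer to the gamma cluster had more fragments in the 5637 knockdown libraries. PCDHB11 had 6, 8 and 1 fragments in UM-UC-3, 5 in the library labelled 5637 sh-NC, and 60 and 81 in the 5637 knockdown libraries (log2 change 2.35, SE 0.42, adjusted p = 0.0117). PCDHB8 had 2, 10 and 4 fragments, then 6, then 33 and 27 (log2 change 1.63, SE 0.41, adjusted p = 0.0312, and 0.0685 without a filter). For both genes the 5637 knockdown libraries lay above all others. Both passed the filter of 0.3 FPKM only through those libraries, so their adjusted p-values rest on the values that let them in. PCDHB14 had 21, 13 and 15 fragments, then 12, then 42 and 57, and at the filter of 0.1 FPKM its adjusted p was 0.0519. PCDHB15, with 1, 2 and 4 fragments, then 6, then 22 and 26, passed at that filter (log2 change 1.49, SE 0.35, adjusted p = 0.0322). So did PCDHB9, with 8, 6 and 3 fragments, then 6, then 33 and 24 (log2 change 1.38, SE 0.35, adjusted p = 0.0399). That filter was added after the values were seen. PCDHB9, PCDHB14 and PCDHB15 reached it only through the 5637 knockdown libraries, so their adjusted p-values rest on the values that let them in. With either 5637 knockdown library left out, PCDHB8 and PCDHB11 fell under the filter of 0.3 FPKM and were not tested.

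PCDHB10 and PCDHB16 are harder to assign. The position listed for PCDHB10 (chr5:141182560-141195642) overlaps those of PCDHB16 and PCDHB9, and beta genes are close copies of each other whose reads the counting could split. PCDHB10 had 5, 3 and 1 fragments in UM-UC-3, 6 in the library labelled 5637 sh-NC, and 37 and 28 in the 5637 knockdown libraries. PCDHB16 had 7, 5 and 2 fragments, then 6, then 32 and 12. At the filter of 0.1 FPKM the log2 change was 1.73 (SE 0.34, adjusted p = 0.0217) for PCDHB10 and 1.11 (SE 0.43, adjusted p = 0.116) for PCDHB16. Both genes reached that filter only through the 5637 knockdown libraries. PCDHB7 (3 and 6 against 12 and 5 fragments in the knockdown libraries), PCDHB12 (17 and 7 against 17 and 14) and PCDHB13 (8 and 7 against 15 and 22) showed smaller differences. The pseudogenes PCDHB17P, PCDHB18P and PCDHB19P had 0 to 7 fragments in each library.

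**Figure D3:**
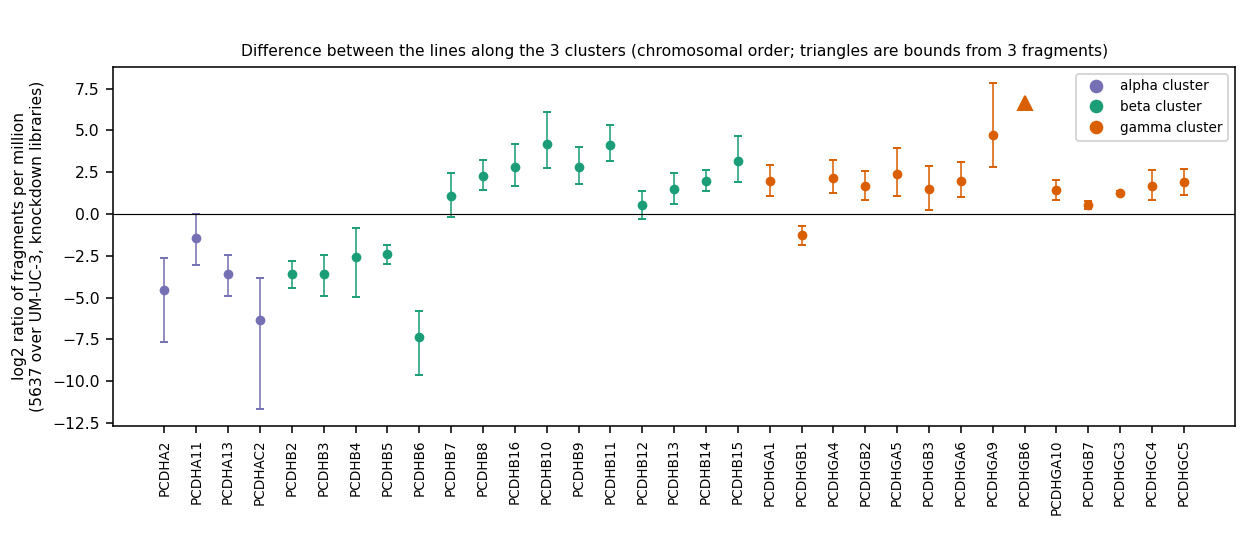
Log2 ratio of depth-scaled fragments of the 5637 over the UM-UC-3 knockdown libraries, with exact 95% counting intervals, for the members with at least 20 fragments in those libraries, in chromosomal order. The points are below 0 from PCDHA2 to PCDHB6, above 0 from PCDHB7 onward except PCDHGB1 at -1.25, and the triangle marks PCDHGB6, at least 99.4-fold higher.

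Alpha genes were found mainly in UM-UC-3. The alpha cluster gave 221, 143 and 177 fragments in UM-UC-3, 104 in the library labelled 5637 sh-NC, and 31 and 12 in the 5637 knockdown libraries. PCDHAC2, a C-type isoform that serotonergic neurons use, had 63, 37 and 56 fragments in UM-UC-3, 37 in the library labelled 5637 sh-NC, and 0 and 1 in the 5637 knockdown libraries. PCDHA13, the last alpha gene before the C-type genes, had 66, 43 and 51 fragments, then 45, then 5 and 2. For both genes the library labelled 5637 sh-NC lay within or close to the UM-UC-3 range and far above the 5637 knockdown libraries. At the filter of 0.1 FPKM, which PCDHAC2 reached only through the UM-UC-3 knockdown libraries, its log2 change was -1.58 (SE 0.36, adjusted p = 0.0302). PCDHA13 had a mean under this filter in the 4 knockdown libraries. Its fragments gave 11.9 times more in the UM-UC-3 knockdown libraries, with a counting interval of 5.57 to 30.5.

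PCDHA2 departed from this. It had 21, 23 and 30 fragments in UM-UC-3, but 3 in the library labelled 5637 sh-NC and 2 and 0 in the 5637 knockdown libraries. On the log2 scale the library labelled 5637 sh-NC was 0.81 from the UM-UC-3 mean and 0.11 from the mean of the 5637 knockdown libraries. PCDHA3, with 22, 7 and 8 fragments, then 4, then 0 and 3, was likewise nearer to the 5637 knockdown libraries (0.35 against 0.13). PCDHAC1 had 8, 1 and 2 fragments, then 3, then 3 and 0. All remaining alpha rows had at most 14 fragments in any library.

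PCDHGC3, which unlike most isoforms is made in many cell types outside the brain and inhibits Wnt signaling through Axin1, was the leading member. It had 2.71, 2.15 and 3.02 FPKM in UM-UC-3, 4.08 in the library labelled 5637 sh-NC, and 5.57 and 7.08 in the 5637 knockdown libraries. Its fragments, estimated here at 663 to 1901 per library, made up 63.6% to 90.3% of those of the gamma cluster. The 5637 knockdown libraries lay above the others, with the library labelled 5637 sh-NC next (log2 change of the knockdown libraries 1.27, SE 0.28, adjusted p = 0.0215). That call was lost without sh-LNMAT1#1 of either line, without 5637 sh-LNMAT1#2 and without a filter, with adjusted p from 0.055 to 0.225.

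PCDHGB6 was found in the 5637 knockdown libraries alone. No fragment was assigned to it in the 3 UM-UC-3 libraries or the library labelled 5637 sh-NC, while 5637 sh-LNMAT1#1 had 115 and sh-LNMAT1#2 had 150. These were 0.601 and 0.842 FPKM (log2 change against the UM-UC-3 knockdown libraries 3.02, SE 0.38, adjusted p = 0.00403). Against 3 fragments over the UM-UC-3 knockdown libraries, PCDHGB6 was at least 99.4-fold higher. PCDHGB6 passed the filter only through the 5637 knockdown libraries, so its adjusted p rests on the values that let it in. With either 5637 knockdown library left out its mean was under the filter and it was not tested. Its neighbor PCDHGA9 had 2, 1 and 1 fragments in UM-UC-3, 2 in the library labelled 5637 sh-NC, and 20 and 27 in the 5637 knockdown libraries. The next B-type gene upstream, PCDHGB5, had at most 3 fragments in any library.

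PCDHGB7, by contrast, was present in all 6 libraries and varied widely among those of UM-UC-3. It had 61, 200 and 23 fragments in UM-UC-3, 130 in the library labelled 5637 sh-NC, and 178 and 111 in the 5637 knockdown libraries. Within UM-UC-3 sh-LNMAT1#1 had 8.96 times as much as sh-LNMAT1#2, with a counting interval of 5.80 to 14.5, and sh-NC lay between them. The difference between the lines (log2 change 0.91, SE 0.84, adjusted p = 0.435) did not exceed this spread, and by limma it turned to -0.32 without UM-UC-3 sh-LNMAT1#2 (adjusted p = 0.522) and passed at 2.15 without UM-UC-3 sh-LNMAT1#1 (adjusted p = 0.0361). Other gamma genes varied in the same libraries. PCDHGA10 had 18, 33 and 3 fragments in UM-UC-3 and PCDHGB1 40, 81 and 21, in each case with sh-LNMAT1#1 highest and sh-LNMAT1#2 lowest.

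PCDHGA1 and PCDHGC5 were highest in sh-NC within UM-UC-3. PCDHGA1, the first gene of the gamma array, had 46, 10 and 4 fragments in UM-UC-3, then 30, then 4 and 44. PCDHGC5, the last C-type gene, had 45, 15 and 4 fragments in UM-UC-3, then 31, then 50 and 13. In both genes 1 of the 5637 knockdown libraries lay above the library labelled 5637 sh-NC and the other below it. PCDHGC4, which neurons in mice need for survival, had 11, 8 and 8 fragments in UM-UC-3, then 21, then 35 and 11. Among the 29 members with at least 20 fragments in some library, 8 differed over 4-fold between their highest and lowest UM-UC-3 library. All of these except PCDHGB7 had fewer than 5 fragments in the lowest library. The share of all genes that differed this much was not computed, so the count does not show that the members varied more than other genes.

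**Figure D4:**
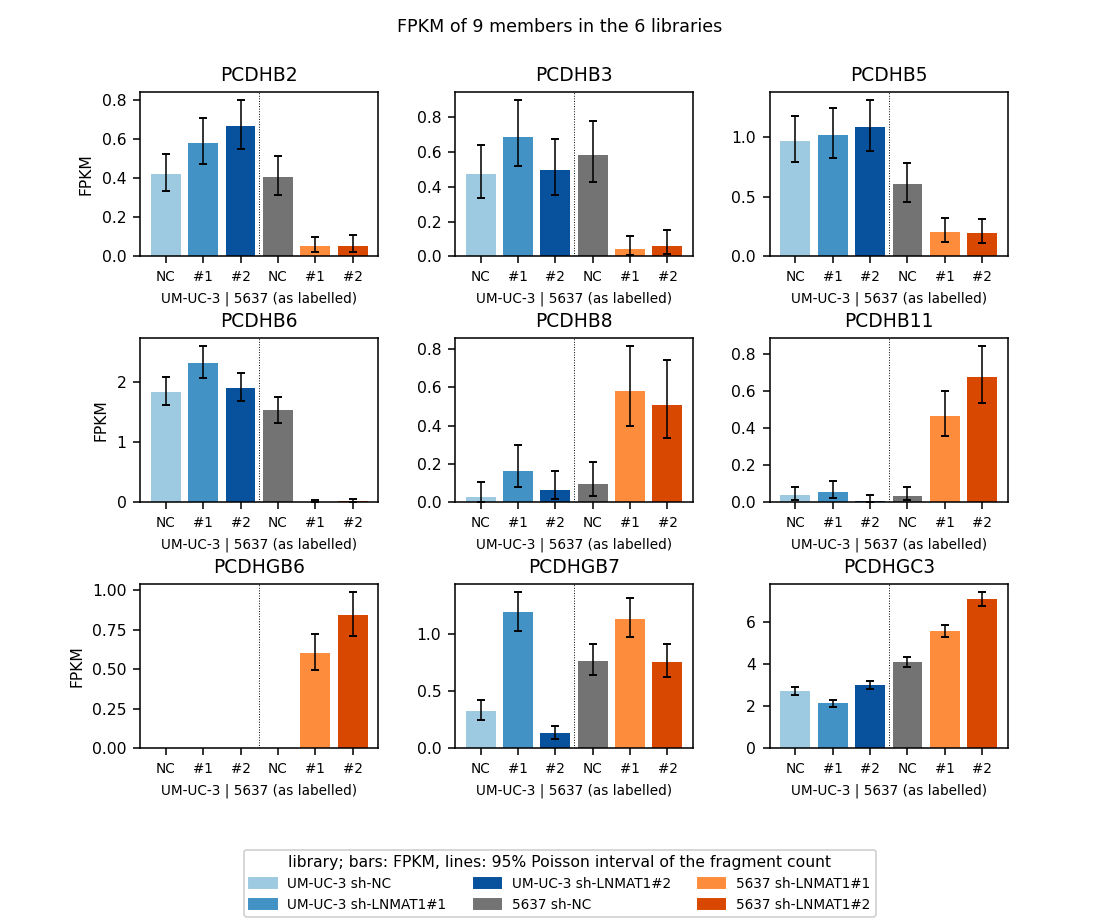
FPKM (bars) of the 9 members that passed the filter of 0.3 FPKM in the 4 knockdown libraries, by library, with the 95% Poisson interval of the fragment count as a line. The dotted line divides the lines as labelled. PCDHB2, PCDHB3, PCDHB5 and PCDHB6 are low only in the last 2 bars, PCDHGB6, PCDHB8 and PCDHB11 are high only there, and PCDHGB7 ranges from 0.133 to 1.19 FPKM within UM-UC-3.

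Knockdown of LNMAT1 was then compared with sh-NC within each line. In UM-UC-3, 0 of the 6 members with a mean of 0.3 FPKM were at least 2-fold higher with both hairpins and 0 were lower, where 2.18% of 16068 genes were higher and 0.784% lower. Hairpin #1 taken by itself gave 1 higher member, PCDHGB7 (background 1613 of 16068 genes, 10%), and 0 lower (7.95%). Hairpin #2 by itself gave 0 higher (4.23%) and 0 lower (3.04%). At the filter of 0.1 FPKM 0 of 10 were higher (2.72%) or lower (1.21%). With no filter 0 of 54 were higher (1.96% of 32982 genes) and 1, PCDHGA1, was lower (1.95%). PCDHB6 changed by a factor of 1.26 (counting interval 1.06 to 1.49) with sh-LNMAT1#1 and 1.04 (0.869 to 1.24) with sh-LNMAT1#2. PCDHGC3 changed by a factor of 0.791 (0.715 to 0.875) and 1.11 (1.01 to 1.22), in opposite directions. PCDHGB7 was higher with sh-LNMAT1#1, by a factor of 3.64 (2.72 to 4.93), and lower with sh-LNMAT1#2, by a factor of 0.406 (0.240 to 0.666). With 1 library per group these intervals cover counting error and say nothing of the spread between cultures.

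In 5637, against the library labelled sh-NC, 3 of 7 members were at least 2-fold higher with both hairpins (PCDHGB6, PCDHB8 and PCDHB11, background 21.7% of 17252 genes) and 2 were lower (PCDHB6 and PCDHB5, 15.5%). Each hairpin alone gave the same counts, where 25.5% and 24.0% of genes were higher and 19.2% lower with either. The 3 higher members passed the filter only through the knockdown libraries. In the library labelled 5637 sh-NC they were at 0, 0.0976 and 0.0361 FPKM. The 2 lower members passed only through that library, while PCDHB2 and PCDHB3 were under the filter. These counts thus do not describe the clusters as a whole. At the filter of 0.1 FPKM 8 of 23 were higher (21.1%) and 4 lower (15.9%). The 8 were PCDHGB6, PCDHGA9 and the beta genes PCDHB8, PCDHB9, PCDHB10, PCDHB11, PCDHB14 and PCDHB15, and the 4 were PCDHB2, PCDHB3, PCDHB5 and PCDHB6. The 8 reached this filter only through the knockdown libraries. PCDHB2, PCDHB3 and PCDHB6 reached it only through the library labelled 5637 sh-NC. The counts at this filter thus do not describe the clusters as a whole either. All 8 and all 4 also differed between the lines in the knockdown libraries. The library labelled 5637 sh-NC was nearer to the UM-UC-3 mean than to the 5637 knockdown mean for 21 of the 29 members with at least 20 fragments. The share of all genes by this rule was not computed, and over all genes this library also correlated more with the UM-UC-3 libraries. When UM-UC-3 sh-NC was put in its place, an alternative added after the values were seen, 5 of 7 members were higher (20.6% of 17101 genes) and 2 lower (13.8%). No other 5637 control was analysed here, so an effect of the hairpins on the members in 5637 cannot be told apart from the difference between this library and the other 5637 libraries.

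With both lines pooled and the line as a covariate, limma called 0 of the 6 members tested and 0 of 17140 genes (0.0%). At an unadjusted p under 0.05 there were 0 members and 1079 genes. The log2 change of the 6 members ranged from -1.83 (SE 0.91, adjusted p = 0.581) for PCDHB6 to 0.30 (SE 0.74, adjusted p = 0.881) for PCDHGB7. Without the library labelled 5637 sh-NC there were again 0 calls, and the log2 change of PCDHB6 turned to 0.18. Without UM-UC-3 sh-NC, so that the library labelled 5637 sh-NC was the sole control, 3 members were lower (PCDHB2, PCDHB3 and PCDHB6), as were 2364 of 17255 genes.

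The difference of the knockdown effect between the lines passed for 0 of 6 members in the higher direction (background 9.38% of 17140 genes) and for 1, PCDHB6, in the lower direction (8.0%). Its log2 value, 5637 minus UM-UC-3, was -4.03 (SE 0.54, adjusted p = 0.0127). PCDHB3 (-2.45, SE 0.61, adjusted p = 0.0514) and PCDHB2 (-2.20, SE 0.57, adjusted p = 0.0573) stood just over the threshold. At the filter of 0.1 FPKM 1 of 20 members was called in the higher direction (6.49%) and 1 in the lower (4.86%, with 11.4% in either), and the higher one was PCDHGB6 (3.02, SE 0.56, adjusted p = 0.0412). PCDHGB6 reached that filter only through the 5637 knockdown libraries. With no filter 1 of 58 was higher (5.85%) and 1 lower (4.58%, with 10.4% in either). All these values use the library labelled 5637 sh-NC as a control, and with it left out this test could not be made.

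As whole clusters, beta and gamma moved little in UM-UC-3. On the log2 scale the summed FPKM of the gamma cluster changed by 0.13 with hairpin #1 and -0.17 with hairpin #2, that of the beta cluster by 0.33 and 0.11, and that of the alpha cluster by -0.43 and -0.17. Against the library labelled 5637 sh-NC the gamma sum changed by 0.75 and 0.86, the beta sum by -0.23 and -0.25 and the alpha sum by -0.89 and -2.88. The -0.89 was -2.01 without the pseudogene PCDHA14 and -1.64 as depth-scaled fragments. Against UM-UC-3 sh-NC in place of that library, an alternative added after the values were seen, the sums of the 5637 knockdown libraries changed by 1.22 and 1.33 for gamma, -0.40 and -0.41 for beta and -1.87 and -3.86 for alpha. The near balance of the beta sum in 5637 covered opposite changes on either side of PCDHB7, as the fragments of the 2 blocks show.

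Genes that act on the clusters were examined from fixed lists. CTCF, whose binding at the promoters and enhancers sets their loops, was at 17.8 to 19.01 FPKM in UM-UC-3, 18.6 in the library labelled 5637 sh-NC and 15.5 and 15.6 in the 5637 knockdown libraries (log2 change between the lines -0.19, SE 0.18, adjusted p = 0.440). Of 15 CTCF and cohesin genes 14 were tested, 2 were higher in the 5637 knockdown libraries and 2 lower, with a median log2 change of -0.07 against 0.00 over all genes. Over the 17294 genes tested, 19.7% were higher and 17.2% lower, which is the background of this and the following lists. The cohesin subunit SMC1A was higher (2.73, SE 0.24, adjusted p = 0.00143), while SMC3 (-0.85, SE 0.20, adjusted p = 0.0267) and the cohesin release factor WAPL (-1.57, SE 0.19, adjusted p = 0.00325) were lower.

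Of 10 DNA methylation genes 9 were tested, 5 were higher in the 5637 knockdown libraries and 0 lower, and the median log2 change was 1.02. The methyltransferase DNMT3B, which methylates promoters de novo, was at 1.83, 1.26 and 1.88 FPKM in UM-UC-3, 1.11 in the library labelled 5637 sh-NC and 5.97 and 6.53 in the 5637 knockdown libraries (log2 change 1.95, SE 0.28, adjusted p = 0.00591). DNMT1, which maintains methylation, DNMT3A and the demethylating enzyme TET1 were higher by 1.42 (SE 0.22, adjusted p = 0.00709), 1.42 (SE 0.34, adjusted p = 0.0278) and 2.18 (SE 0.36, adjusted p = 0.00931). Of 16 genes of repressive chromatin, all tested, 6 were higher and 1 lower. SMCHD1, which silences clustered protocadherins, did not pass (-0.06, SE 0.25, adjusted p = 0.875), nor did the histone methyltransferase SETDB1 (0.55, SE 0.22, adjusted p = 0.108). In all lists the part of these genes in the pattern of the members was not tested.

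**Figure D5:**
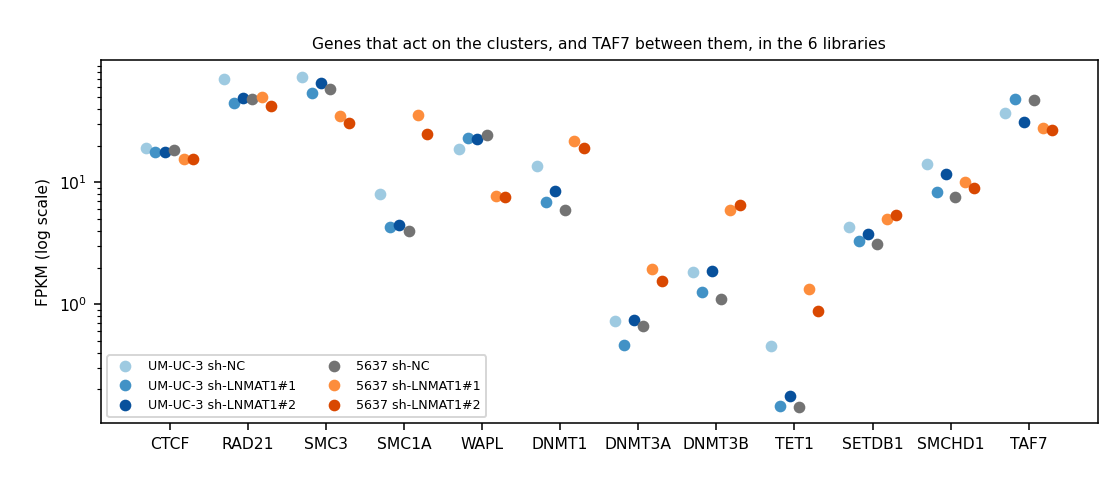
FPKM (log scale) of CTCF, cohesin, DNA methylation and chromatin genes, and of TAF7 between the clusters, with 1 point for each library. CTCF lies between 15.5 and 19.01 FPKM in all 6 libraries, while DNMT3B and SMC1A are higher in the 5637 knockdown libraries than in the other 4.

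Among 24 genes for processing and signaling of the proteins, 22 were tested, 3 were higher in the 5637 knockdown libraries and 3 lower. The sheddase ADAM10 (0.70, SE 0.25, adjusted p = 0.0808) did not pass, whereas the gamma-secretase subunit APH1B was lower (-3.49, SE 0.53, adjusted p = 0.00692). PTK2B, a focal adhesion kinase that alpha and gamma protocadherins inhibit, was at 0.169 to 0.388 FPKM in UM-UC-3, 0.323 in the library labelled 5637 sh-NC and 8.31 and 8.32 in the 5637 knockdown libraries (4.39, SE 0.30, adjusted p = 0.000681). The related kinase PTK2 did not pass (-0.27, SE 0.23, adjusted p = 0.404).

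Genes next to the clusters were set beside them. TAF7, a general transcription factor gene between the beta and gamma arrays, was at 31.1 to 48.1 FPKM in UM-UC-3, 47.1 in the library labelled 5637 sh-NC and 27.99 and 26.7 in the 5637 knockdown libraries (-0.50, SE 0.26, adjusted p = 0.192). SLC25A2, the other gene there, had at most 0.0364 FPKM. Upstream of the alpha cluster 17 genes were tested, 1 was higher and 6 lower, and downstream of the gamma cluster 11 were tested, 2 higher and 5 lower. The protocadherin outside the clusters PCDH1, which lies downstream of gamma, was at 0.0171 to 0.189 FPKM in UM-UC-3, 0.197 in the library labelled 5637 sh-NC and 6.31 and 6.79 in the 5637 knockdown libraries (5.18, SE 0.49, adjusted p = 0.00167). Of the 12 non-clustered protocadherins 4 were tested, and PCDH10 (-3.73, SE 0.38, adjusted p = 0.00199) and PCDH15 (-4.57, SE 0.33, adjusted p = 0.000745), which act in axon guidance and in hair cells of the ear, were lower.

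Among markers of cell type, the epithelial and urothelial genes tested moved with the same split of the libraries, while mesenchymal genes went both ways. The part of the markers in the pattern of the members was not tested. All 15 epithelial and urothelial genes tested were higher in the 5637 knockdown libraries, KRT19 by 11.03 (SE 0.24, adjusted p = 0.000209) and EPCAM by 8.17 (SE 0.24, adjusted p = 0.000251). Most of them, KRT19 and EPCAM included, passed the filter only through these libraries. UPK1A, under the filter and not tested, went the other way. It was at 0.338 to 0.410 FPKM in UM-UC-3, 0.293 in the library labelled 5637 sh-NC and 0 and 0.0485 in the 5637 knockdown libraries. Of 9 mesenchymal genes tested 3 were higher and 4 lower. The transcription factor ZEB1 was lower (log2 change -6.50, SE 0.33, adjusted p = 0.000373), as was the intermediate filament gene VIM, at 116 to 332 FPKM in UM-UC-3, 103 in the library labelled 5637 sh-NC and 3.85 and 4.14 in the 5637 knockdown libraries (-5.03, SE 0.22, adjusted p = 0.00029). The fibronectin gene FN1 was higher, at 0.816 to 2.27, 0.884, and 109.6 and 102 FPKM (5.99, SE 0.37, adjusted p = 0.000497). The sum of the mesenchymal list was 164 to 367 FPKM in UM-UC-3, 144 in the library labelled 5637 sh-NC and 143 and 146 in the 5637 knockdown libraries. The sum of 12 neuronal genes was 6.66 to 8.81 FPKM in UM-UC-3, 6.17 in the library labelled 5637 sh-NC and 7.49 to 10.6 in the 5637 knockdown libraries, with 4 of them under 0.1 FPKM in all libraries. From this list 4 were tested, 0 were higher and 1 was lower, the synaptic vesicle gene SYP (-2.90, SE 0.36, adjusted p = 0.00375). The leukocyte genes CD3E and LYZ were at 0 throughout, while the 7 leukocyte genes summed to 13.8 to 31.3 FPKM in the first 4 libraries, nearly all from the lysosomal gene CD68, and to 1.03 and 1.10 in the 5637 knockdown libraries. CD68 was the only leukocyte gene tested and was lower (-4.46, SE 0.42, adjusted p = 0.00167). The 6 endothelial genes summed to 0.0966 to 0.310 FPKM, and 0 of them passed the filter. In bulk RNA, fewer cells that express a member and less RNA per cell cannot be told apart.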

How the data were processed

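RNA was sequenced from 6 libraries after stranded poly(A) library preparation. The only RNA sequencing method in the authors' supplement, for bladder cancer and normal samples, names rRNA removal instead. Per the labels, the authors aligned reads with HISAT2 to hg38, and they deposited 1 FPKM value per gene and library. The counting tool and annotation are not given in the sources used here. 1 gene broken over 2 lines was left out. Multiplying FPKM by summed transcript length (GENCODE 29) and by a depth fitted on 14670 single-exon genes gave whole fragments, within 0.05, for 99.5% to 99.6% of one-transcript genes but 28.4% to 29.9% of the others, so no count test was run. Fragments of 52 members came from annotated lengths, of 6 from the ratio of their values, and of PCDHGC3 by estimate. Each 0 allows up to 3 fragments, and intervals are 95% exact.

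Tests used limma 3.58.1 (R 4.3.3) on log2(FPKM + 0.1) with trend, a mean of at least 0.3 FPKM and Benjamini-Hochberg adjustment over all genes, at 0.05. Nothing says that libraries were separate cultures, so p-values measure the spread between these libraries. On data simulated for the comparison of lines over 17140 genes, 100% of 2-fold changes were recovered with 12 false calls, and for the difference of effects 62.5% of 2-fold and 100% of 8-fold changes. The simulated spread between libraries was the same for every gene. It was smaller than the SE of each of the 9 members tested between the lines (0.28 to 0.84). These shares therefore do not give the power for the members. Members and lists were chosen with earlier results of these data known. Values in every library were given by rule for members with 1 FPKM anywhere, C-type members and members changed at least 2-fold with both hairpins in a line, and up to 4 genes were named per list. Other members were named after their values were seen. The alternatives tried are listed in the closing section. Promoters and their positions are from RefSeq, GRCh38.p14.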

Additional observations from a re-analysis of the deposited data

Results flagged for a closer look

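The knockdown effect differed between the lines, as labelled, for PCDHB6 by the test of the difference itself (log2 value of 5637 minus UM-UC-3 -4.03, SE 0.54, limma adjusted p = 0.0127). For PCDHB5 (-1.35, SE 0.53, adjusted p = 0.139), PCDHB3 (-2.45, SE 0.61, adjusted p = 0.0514) and PCDHB2 (-2.20, SE 0.57, adjusted p = 0.0573) the tested difference did not pass. These genes were lower in both 5637 knockdown libraries than in the library labelled 5637 sh-NC. In UM-UC-3 the log2 changes with hairpins #1 and #2 were 0.07 and 0.15 for PCDHB5 and 0.46 and 0.06 for PCDHB3. For PCDHB2 they were 0.38 and 0.56. Except for PCDHB2 with hairpin #2, the counting intervals overlapped that of sh-NC, so a rise in UM-UC-3 was not shown for PCDHB5 or PCDHB3. All 4 genes are in the first block of the beta cluster, and each tested difference takes the library labelled 5637 sh-NC as the control of that line.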

How the results depend on the processing

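Of the counts of members and the cluster sums, 109 values held, 36 moved and 3 reversed under the alternatives, among them pseudocounts of 0.5 and 1, a filter of 1 FPKM or none, and 75th-percentile scaling. In UM-UC-3, 1 member was lower without a filter and 1 higher with sh-LNMAT1#1 alone. Percentages after a count are the shares of all genes tested that were higher and lower under the same setting. In 5637 the members higher and lower numbered 1 and 1 of 7 at a pseudocount of 0.5 (16.4% and 12.6%), 0 and 1 of 7 at a pseudocount of 1 (12.2% and 9.92%), 8 and 6 of 57 without a filter (14.4% and 13.5%), 0 and 0 at a filter of 1 FPKM, which 1 member passed (20.9% and 13.9%), 8 and 4 of 23 at a filter of 0.1 FPKM (21.1% and 15.9%), and 5 and 2 of 7 against UM-UC-3 sh-NC (20.6% and 13.8%). Between the lines they numbered 6 and 7 of 58 without a filter (9.48% and 7.09%), 1 and 1 of 2 at 1 FPKM (19.7% and 18.2%), 7 and 5 of 20 at 0.1 FPKM (17.6% and 14.5%), 1 and 4 of 6 against all 3 UM-UC-3 libraries (21.2% and 20.6%) and 0 and 0 of 6 with all 6 libraries by labelled line (0.00583% each). Leaving out a library gave 0 to 4 higher and 1 to 2 lower between the lines, with 0 higher of 6 tested when either 5637 library was left out (5.22% and 5.39% of all genes), PCDHGB6, PCDHB8 and PCDHB11 then being under the filter, as PCDHB2 and PCDHB3 were without either UM-UC-3 library, and 0 to 3 lower in the pooled comparison, the 3 without UM-UC-3 sh-NC. A lone library left in a group is assumed to vary like the others. The difference of effects had 1 member higher without a filter and at 0.1 FPKM.

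With the hairpin number as a replicate block the line comparison again gave 4 higher and 4 lower. The hairpin libraries share only a number, and the deviations of same-numbered libraries correlated at 0.017 across 17294 genes. No paired analysis was possible because of single libraries in the other comparisons. Of the cluster sums, the alpha change with 5637 sh-LNMAT1#1 was -2.01 without pseudogenes. Added after the values were seen, depth-scaled fragments gave -1.64 for this change and turned the gamma change with UM-UC-3 sh-LNMAT1#1 to -0.036. Against UM-UC-3 sh-NC the alpha changes of the 5637 knockdown libraries were -1.87 and -3.86 and the gamma changes 1.22 and 1.33. With single-exon members only, the beta change was 0.66 for UM-UC-3 sh-LNMAT1#1 and turned to 2.13 and 1.90 for the 5637 knockdown libraries, since these 7 members are PCDHB1, PCDHB7, PCDHB8, PCDHB10, PCDHB13 and 2 pseudogenes. Alpha and gamma held 1 such member each, which gave no sum. Values of single genes held in 173 cases, were weaker in 16, stronger in 4 and reversed in 7, each reversal with a library left out and none past the threshold. Leaving out a library gave PCDHGB7 -0.32 to 2.15 between the lines, the lowest without UM-UC-3 sh-LNMAT1#2 and the highest without UM-UC-3 sh-LNMAT1#1. In the pooled comparison it gave -1.73 to 0.47 for PCDHB2, -2.19 to 0.26 for PCDHB3, -1.24 to 0.11 for PCDHB5, -3.85 to 0.18 for PCDHB6 and -0.089 to 0.61 for PCDHGC3, the first 4 positive and PCDHGC3 negative only without the library labelled 5637 sh-NC, and -0.23 to 0.82 for PCDHGB7, negative only without UM-UC-3 sh-LNMAT1#1. The causes were not tested. Depth limits most members, since 30 of 59 had under 20 fragments in every library.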
